A study of Mus musculus with 238 samples.

Results

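The motor cortex libraries of the plasma experiment were compared, 3 from mice given plasma of young mice (YMP) and 4 from mice given phosphate-buffered saline (PBS). They were chosen by the tissue and treatment in the labels and are 7 of the 238 libraries of the series. All 7 came from male C57BL/6JN mice of 19 months that were injected behind the eye, so the injection itself was shared by both groups. The dose, the number of injections, the age of the plasma donors and the time from the last injection to dissection were not given in the sources used here. The series also holds a diet experiment in female mice of the same strain and age, either dietary restricted (aDR) or fed freely (AL), and its motor cortex was used once below. Messenger RNA of homogenised tissue was read as full-length cDNA, without strand, as counts per gene. Each mouse gave 1 library per region, so the mouse was the replicate. Mice 72, 76, 80 and 84 received PBS and mice 73, 77 and 81 received YMP, and values are listed in that order throughout.

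Plasma carries hormones, growth factors, cytokines and metabolites, and its composition changes with age. In old mice, exchange with a young circulation has been studied for its effects on neurons, glia and vessels of the brain, where the endothelium forms the barrier between blood and tissue. Motor cortex is a layered neocortical area that holds excitatory neurons projecting to the striatum, brainstem and spinal cord, local inhibitory interneurons, glia and vessels.

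The labelled tissue carried its markers. In the PBS mice, Slc17a7 (the vesicular glutamate transporter of cortical neurons) and Tbr1 (a transcription factor of cortical projection neurons) were each at their highest mean level among 15 brain regions. Fezf2 and Rorb ranked 3 and Neurod6 ranked 4 of 15, with higher means in hippocampus for Fezf2 and Neurod6 and in thalamus for Rorb. Ttr, the defining transcript of choroid plexus, was at 0 counts in 5 of the 7 libraries and at most 0.734 CPM (a level scaled to a common library size). Drd2, a marker of striatal neurons, lay between 0.645 and 2.05 CPM. Libraries held 2503090 (YMP 73) to 13616085 (PBS 80) counts. Mitochondrial transcripts made up 1.85 to 2.44% of them, and the 10 most abundant genes 4.18 to 4.45%. PBS mice 72 and 84 stood apart from the rest: on the first principal component, which held 36.8% of the variance, they lay at -27.1 and 29.8, and the other 5 libraries lay between -15.2 and 4.12. YMP 73, the shallowest library, lay apart on the second component, with 20.8% of the variance, at -26.5. PBS 72 had the highest sum of meningeal fibroblast markers, 3320 CPM, against 837 to 1300 CPM in the other PBS mice and 992 to 1790 CPM in the YMP mice.

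**Figure D1:**
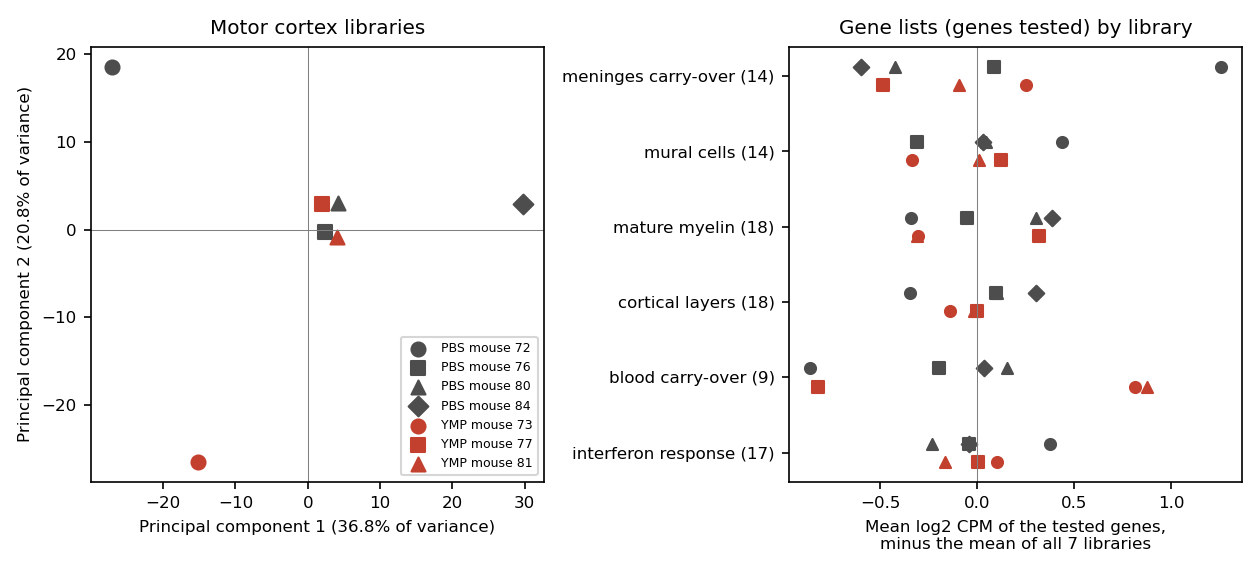
The left panel places the 7 motor cortex libraries (grey PBS, red YMP, 1 symbol per mouse) on the first 2 principal components of log2 CPM. The right panel gives, for 6 gene lists, the mean log2 CPM of the tested members in each library minus the mean over the 7 libraries. PBS 72 lies at -27.1 and PBS 84 at 29.8 on the first component, and PBS 72 is also the library highest in meningeal genes.

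No gene passed the test between YMP and PBS mice in motor cortex. Of 13246 genes tested with the quasi-likelihood test of edgeR, 0 had an adjusted p under 0.05 (0% called), and the smallest adjusted p was 0.9998. DESeq2 also called 0 genes. At an unadjusted p under 0.05, edgeR held 347 genes (2.62% of those tested), 188 higher (1.42%) and 159 lower (1.2%) in YMP, and DESeq2 held 154. Of unchanged genes, a share of about 0.05 is expected under that p. The count of 347 depended on PBS 72, since it was 656 without that mouse. In 664 genes (5.01%) every YMP library lay outside the range of the PBS libraries, above it in 369 (2.79%) and below it in 295 (2.23%). With so few libraries, groups also separate by chance, so a separation alone does not mark a gene as changed. The log2 changes (YMP minus PBS) were centred on -0.01, and 58.2% of genes lay within 0.1 of 0.

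The 7 libraries bounded how large a change could have been present. The 95% interval of the log2 change lay within a 2-fold change in either direction in 12318 genes, 93% of those tested. That share was 73.6% of the 3098 genes under 10 CPM, 98.7% of the 7796 genes at 10 to 100 CPM and 99.7% of the 2352 genes above 100 CPM. The median standard error was 0.124 and the median interval reached 0.277 to each side. Point estimates beyond 2-fold were found in 25 genes, 5 higher and 20 lower, and beyond 1.5-fold in 43 higher and 176 lower genes, none of which passed the test.

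**Figure D2:**
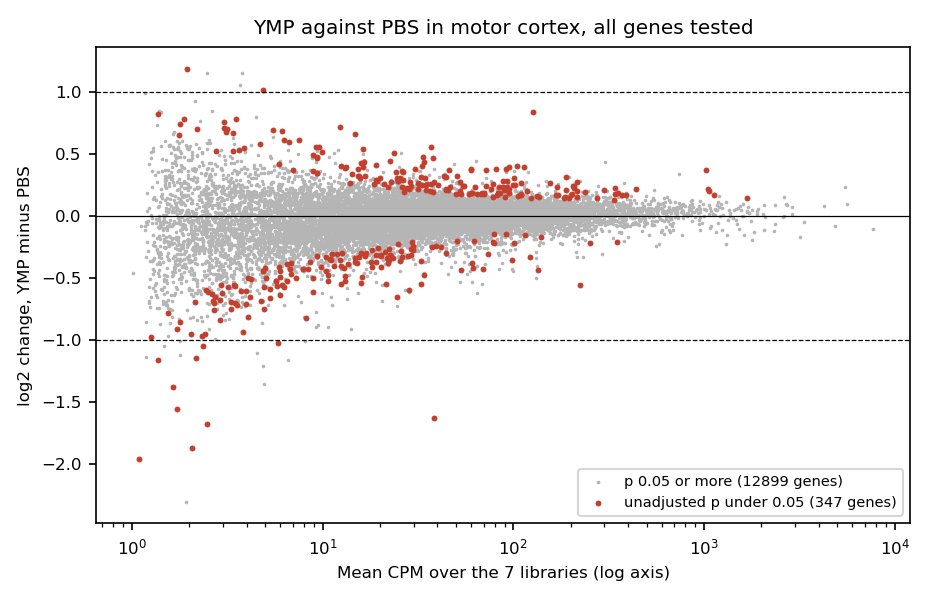
Each point is 1 of the 13246 genes, with its mean CPM over the 7 libraries (log axis) against its log2 change, YMP minus PBS, and dashed lines at a 2-fold change. Red points are the 347 genes with an unadjusted p under 0.05. Changes beyond 2-fold are seen mostly among genes of low level.

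The gene with the smallest p was Fxyd6 (chr9:45369470-45396159, GRCm38), which encodes a regulator of the sodium pump. It read 141, 133, 136 and 126 CPM in the PBS mice and 107, 113 and 99.5 CPM in the YMP mice (log2 change -0.34, 95% interval -0.50 to -0.18, adjusted p 0.9998). Every YMP mouse lay below every PBS mouse. The next genes among the 12 lower ones with the smallest p were mostly of moderate level. Satb1 (chr17:51736187-51833290), a chromatin organiser with a role in cortical interneurons, read 146, 139.7, 146 and 176 CPM in the PBS mice and 98.3, 118 and 118 CPM in the YMP mice (log2 change -0.43, 95% interval -0.66 to -0.21). Atp2b4 (chr1:133702674-133801059), a plasma membrane calcium pump, read 34.2, 36.9, 36.8 and 36.9 CPM in the PBS mice and 28.6, 26.3 and 29.6 CPM in the YMP mice (log2 change -0.36, 95% interval -0.55 to -0.17). The PBS values of Atp2b4 were close together and the YMP values all lay below them. Tenm2, a teneurin of synaptic adhesion, read 75.7, 60.2, 64.5 and 67.6 CPM in the PBS mice and 53.6, 48.2 and 53.5 CPM in the YMP mice (log2 change -0.38, 95% interval -0.59 to -0.17). Efna5, the axon guidance ligand ephrin A5, read 128, 96.3, 98.8 and 111 CPM in the PBS mice and 89.9, 79.5 and 86.7 CPM in the YMP mice (log2 change -0.36, 95% interval -0.59 to -0.12), and its highest value was that of PBS 72.

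Igfbp5, a binding protein of insulin-like growth factors, averaged 60.5 ± 8.09 CPM in PBS (SD, n = 4) and 43.99 ± 3.68 CPM in YMP (SD, n = 3) (log2 change -0.44, 95% interval -0.69 to -0.18). Chn2, a Rac-inactivating chimaerin, averaged 77.9 ± 10.7 CPM in PBS (SD, n = 4) and 58.5 ± 6.42 CPM in YMP (SD, n = 3) (log2 change -0.43, 95% interval -0.70 to -0.16). The remaining lower genes were Nrep, Aifm3, the corepressor subunit Rcor3, Fam160a1 and Marveld2, with log2 changes of -0.42, -0.22, -0.36, -1.68 and -1.96. The sizes of the last pair rest on few reads. Marveld2, which encodes a tight junction protein, had 1, 1 and 6 counts in the YMP mice and 25, 8, 20 and 4 in the PBS mice, and Fam160a1 had 1, 6 and 15 against 57, 12, 31 and 21.

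Among genes higher in YMP, the smallest p was that of Camk1g (chr1:193346346-193370355), a calcium and calmodulin-dependent kinase of neurons. It read 69.1, 79.3, 70.5 and 67.7 CPM in the PBS mice and 94.7, 84.7 and 99.4 CPM in the YMP mice (log2 change 0.38, 95% interval 0.19 to 0.57). All YMP values lay above the PBS range, the nearest pair being PBS 76 and YMP 77. Mettl7a1 (chr15:100304145-100330001), a methyltransferase-like gene, read 27.4, 32.8, 29.2 and 26.98 CPM in the PBS mice and 34.3, 41.2 and 43.5 CPM in the YMP mice (log2 change 0.48, 95% interval 0.24 to 0.72). Slc24a3 (chr2:145167775-145642166), an exchanger of sodium for calcium and potassium, read 74.3, 92.6, 76.3 and 81.3 CPM in the PBS mice and 110.4, 107 and 99.1 CPM in the YMP mice (log2 change 0.38, 95% interval 0.18 to 0.58). In both, PBS 76 was the highest PBS mouse. Kcnh4, a voltage-gated potassium channel, read 14.6, 14.99, 11.5 and 13.95 CPM in the PBS mice and 20.6, 18.6 and 20.4 CPM in the YMP mice (log2 change 0.54, 95% interval 0.25 to 0.83). Fstl4, a follistatin-like gene, averaged 63.8 ± 5.54 CPM in PBS (SD, n = 4) and 82.6 ± 5.74 CPM in YMP (SD, n = 3), a log2 change of 0.37. Cdh22, a cadherin of cell adhesion, averaged 53.4 ± 5.45 CPM in PBS (SD, n = 4) and 68.97 ± 4.30 CPM in YMP (SD, n = 3), a log2 change of 0.37.

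Ccnb1, cyclin B1 of dividing cells, and Car12, a membrane carbonic anhydrase, had the largest estimates of the 12 higher genes and low levels. Ccnb1 read 1.22, 1.09, 1.53 and 0.918 CPM in the PBS mice and 3.63, 1.92 and 3.33 CPM in the YMP mice, which are 9, 13 and 32 counts in YMP (log2 change 1.18, 95% interval 0.49 to 1.90). Car12 read 2.13, 5.00, 3.14 and 3.49 CPM in the PBS mice and 7.25, 7.24 and 5.72 CPM in the YMP mice (log2 change 1.01, 95% interval 0.42 to 1.62). The values of Car12 in the PBS mice spanned more than those in the YMP mice, and its groups were separated by PBS 76 and YMP 81. Stard8, Ociad2 and the zinc finger gene Zfp180 had log2 changes of 0.47, 0.26 and 0.28, and Pdia4 is described with the chaperones. The groups of all 24 leading genes did not overlap, which their choice by p makes likely. Leaving out any 1 mouse, or PBS 72 and 84 together, gave none of the 24 an adjusted p under 0.05. Their direction did not turn wherever they were tested, which groups that do not overlap largely fix in advance.

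**Figure D3:**
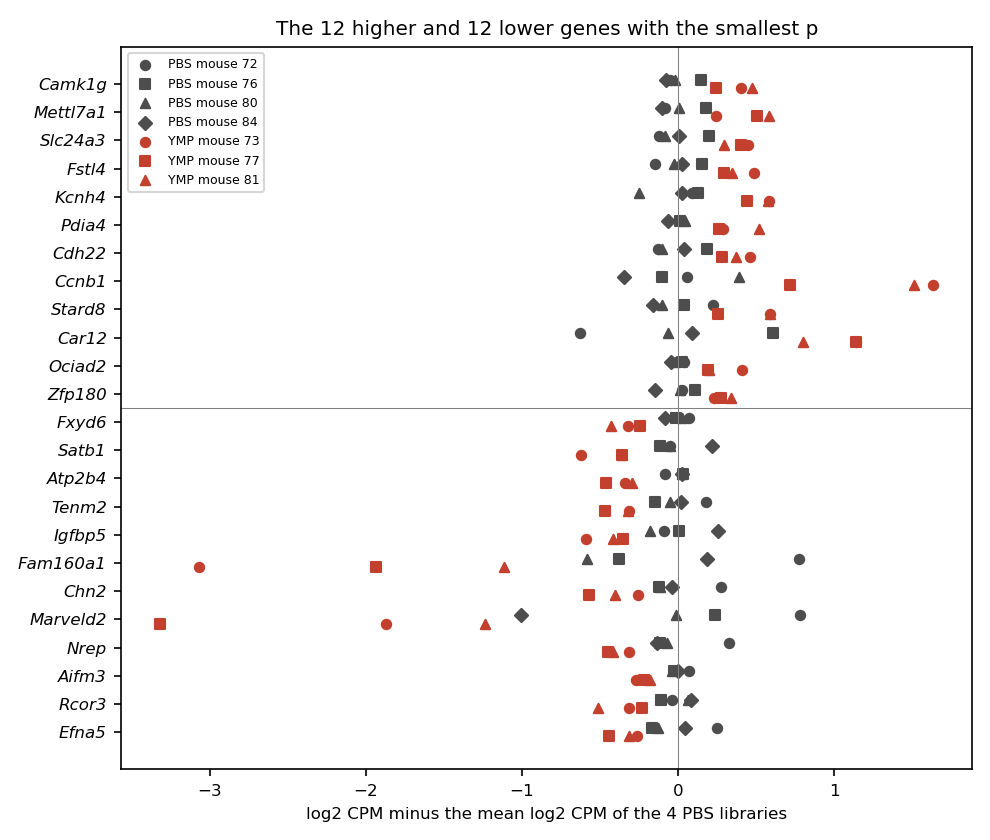
For the 12 higher and 12 lower genes with the smallest unadjusted p, each point is 1 library's log2 CPM minus the mean log2 CPM of the 4 PBS libraries (grey PBS, red YMP, 1 symbol per mouse). Red and grey points are separated in each gene, most by less than 1 on the log2 scale, and Marveld2 and Fam160a1 spread widest.

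Protein folding genes were mostly higher in YMP, and none passed the test. Of 20 heat shock chaperones, 18 were higher and 2 lower in YMP, with a median log2 change of 0.11 against -0.01 over all genes. Of 17 tested genes of the endoplasmic reticulum stress (unfolded protein) response, 13 were higher and 4 lower, with a median of 0.10. In each list 0 members had an adjusted p under 0.05 (0% of all genes), and 2 reached an unadjusted p under 0.05, all higher (1.42% of all genes). The YMP and PBS libraries did not overlap in 4 genes of the second list, Pdia4, Pdia3, Sel1l and Hsp90b1, and 3 of the first, Chordc1, Hsf1 and Hspe1, again all higher (2.79% of all genes). Members of such lists vary together, so their counts are not independent. Without YMP 81 the medians were 0.07 for the heat shock list and 0.05 for the endoplasmic reticulum list. With PBS 72 and 84 left out they were 0.07 and 0.08. Relative to the mean log2 CPM of all libraries, PBS 84 was lowest in both lists, at -0.244 and -0.124. The other PBS mice lay at -0.0481 to 0.0429 and -0.0291 to -0.00727. The YMP mice lay at 0.0581 to 0.127 and 0.0051 to 0.147.

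Pdia4 (chr6:47796141-47813512) and Pdia3 encode disulfide isomerases of the endoplasmic reticulum. Pdia4 read 40.97, 41.3, 42.2 and 39.1 CPM in the PBS mice and 49.98, 48.9 and 58.5 CPM in the YMP mice (log2 change 0.37, 95% interval 0.17 to 0.56). Pdia3 read 163, 209.7, 201 and 187 CPM in the PBS mice and 214, 224 and 233 CPM in the YMP mice (log2 change 0.24, 95% interval 0.04 to 0.43). YMP 81 was highest in both. Hspa5, the chaperone BiP that binds unfolded proteins and holds the stress sensors inactive, read 428, 372, 343 and 261 CPM in the PBS mice and 412, 414 and 439 CPM in the YMP mice (log2 change 0.26, 95% interval -0.04 to 0.57). Its YMP values were close together and overlapped the PBS range through PBS 72. Sdf2l1, a partner of BiP, read 17.3, 20.4, 18.5 and 16.5 CPM in the PBS mice and 22.6, 19.2 and 24.04 CPM in the YMP mice (log2 change 0.27, 95% interval 0.00 to 0.55). Hsp90b1, the HSP90 of this compartment, read 308, 320.1, 315 and 277 CPM in the PBS mice and 327, 321 and 333 CPM in the YMP mice (log2 change 0.10, 95% interval -0.05 to 0.25). PBS 76 and YMP 77 were nearly equal there, so the separation of the groups was narrow. Of the cytosolic chaperones, Chordc1, a partner of HSP90, read 92.8, 101, 97.7 and 77.5 CPM in the PBS mice and 119, 101 and 110.3 CPM in the YMP mice (log2 change 0.25, 95% interval 0.03 to 0.47). The groups of Chordc1 met at 100.82 CPM in PBS 76 and 100.83 CPM in YMP 77. Hspb1, a small heat shock protein, read 6.90, 4.78, 5.25 and 3.30 CPM in the PBS mice and 8.46, 6.36 and 9.05 CPM in the YMP mice (log2 change 0.61, 95% interval 0.06 to 1.16), and its groups overlapped between PBS 72 and YMP 77. Hsf1, the transcription factor that induces the chaperones, had a log2 change of 0.15 and Hspe1, a mitochondrial co-chaperone, one of 0.16.

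Many promoters of the unfolded protein response carry the endoplasmic reticulum stress element, here taken as CCAAT, any 9 bases and CCACG, whose first letters are also the CCAAT box. A search of both strands in the 250 bases before the RefSeq start (GRCm38.p6) found it in 7 of the 16 list members with a window (43.8%), Calr, Canx, Creld2, Dnajc3, Hsp90b1, Hspa5 and Pdia6, and in 16 of 10412 tested genes with a window (0.154%). The heat shock element, taken as TTC, GAA and TTC with any 2 bases between each, was found in 2 of 15 chaperone genes with a window (13.3%), Hspd1 and Hspe1, which share the region between them, and in 50 of all 10412 (0.48%). The windows of the 3 genes with the highest log2 change among the 7 with the stress element are shown because they place the element beside the values, with it in capitals on either strand.
Hspa5 (chr2:34771840-34772089, plus strand): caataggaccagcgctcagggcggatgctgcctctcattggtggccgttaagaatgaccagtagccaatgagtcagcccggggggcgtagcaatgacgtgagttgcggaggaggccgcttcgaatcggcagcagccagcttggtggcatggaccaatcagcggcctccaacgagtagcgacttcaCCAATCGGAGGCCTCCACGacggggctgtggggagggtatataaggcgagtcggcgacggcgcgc
Pdia6 (chr12:17266339-17266588, plus strand): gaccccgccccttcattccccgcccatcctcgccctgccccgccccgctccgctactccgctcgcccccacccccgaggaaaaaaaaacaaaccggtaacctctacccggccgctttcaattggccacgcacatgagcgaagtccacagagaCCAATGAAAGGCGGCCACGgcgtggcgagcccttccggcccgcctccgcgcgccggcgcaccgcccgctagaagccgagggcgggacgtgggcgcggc
Hsp90b1 (chr10:86705445-86705694, minus strand): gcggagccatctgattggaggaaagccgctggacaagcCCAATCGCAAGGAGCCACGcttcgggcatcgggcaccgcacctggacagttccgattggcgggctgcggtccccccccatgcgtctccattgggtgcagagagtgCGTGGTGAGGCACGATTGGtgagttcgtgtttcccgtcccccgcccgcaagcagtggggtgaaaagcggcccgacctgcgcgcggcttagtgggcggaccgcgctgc
Hsp90b1 holds 2 matches. A match describes letters and not binding. The log2 changes of the 7 genes were 0.26 for Hspa5, 0.18 for Pdia6, 0.10 for Hsp90b1, 0.06 for Calr, 0.03 for Canx, -0.07 for Creld2 and -0.08 for Dnajc3. Pdia4 and Pdia3, with the smallest p of the list, were not among the 7.

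Genes induced by the glucocorticoid receptor were highest in 2 of the 3 YMP mice. Their sum read 1320, 1200, 1070 and 1180 CPM in the PBS mice and 1150, 1430 and 1410 CPM in the YMP mice. Of 19 tested, 15 were higher and 4 lower in YMP, with a median log2 change of 0.17. None had an adjusted p under 0.05, 4 reached an unadjusted p under 0.05, all higher (1.42% of all genes), and the groups did not overlap in 1 (2.79% of all genes, higher). That 1 was Errfi1, an inhibitor of the EGF receptor, which read 46.5, 48.9, 45.002 and 43.5 CPM in the PBS mice and 51.2, 64.5 and 54.95 CPM in the YMP mice (log2 change 0.32, 95% interval 0.11 to 0.53). Sgk1, a kinase induced by steroid hormones, read 91.9, 106, 78.7 and 108 CPM in the PBS mice and 80.6, 235 and 183 CPM in the YMP mice (log2 change 0.83, 95% interval 0.24 to 1.43). YMP 73 lay at the low end of the PBS range for Sgk1 and YMP 77 and 81 well above it. Nfkbia, the NF-kappaB inhibitor, read 39.8, 34.1, 25.7 and 25.9 CPM in the PBS mice and 30.2, 55.4 and 47.9 CPM in the YMP mice (log2 change 0.55, 95% interval 0.10 to 1.01). Map3k6 read 6.90, 6.30, 4.96 and 4.41 CPM in the PBS mice and 5.64, 8.13 and 10.4 CPM in the YMP mice (log2 change 0.59, 95% interval 0.08 to 1.11). In both, YMP 77 and 81 were the highest libraries and YMP 73 lay inside the PBS range. The median was 0.32 without PBS 72 and 0.10 without YMP 81.

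Glial and immune genes widely reported to rise with age in mouse brain were mostly lower in YMP, within the spread between mice. Of 19 tested, 4 were higher and 15 lower, with a median log2 change of -0.14. Only 1 member reached an unadjusted p under 0.05, lower (1.2% of all genes), and in 0 did the groups stand apart (5.01% of all genes). C4b, a complement component, read 24.9, 16.9, 25.8 and 31.02 CPM in the PBS mice and 16.9, 22.2 and 12.3 CPM in the YMP mice (log2 change -0.55, 95% interval -1.07 to -0.03). Gfap, the intermediate filament of astrocytes, read 195, 98.2, 147 and 158 CPM in the PBS mice and 116, 129 and 77.5 CPM in the YMP mice (log2 change -0.50, 95% interval -1.004 to 0.01). YMP 81 was the lowest library for both, and PBS 76 lay among the YMP mice. B2m, the light chain of MHC class I, read 112, 114, 105 and 125 CPM in the PBS mice and 98.7, 101 and 110.0 CPM in the YMP mice (log2 change -0.14, 95% interval -0.31 to 0.04). Without PBS 72 and 84 the list had 8 members higher and 11 lower, with a median of -0.04. Without YMP 81 the median was -0.06. In bulk tissue, fewer cells of a type and less RNA per cell cannot be told apart, here or in any cell type list below.

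Microglial and astrocyte lists gave similar small shifts. Of 14 genes of homeostatic microglia, 2 were higher and 12 lower, with a median log2 change of -0.10, which was -0.05 without PBS 72 and -0.155 without PBS 84. Gpr34, a receptor of microglia, read 17.1, 19.1, 17.6 and 13.8 CPM in the PBS mice and 14.9, 13.3 and 12.8 CPM in the YMP mice (log2 change -0.33, 95% interval -0.64 to -0.02). Sall1, the transcription factor of microglial identity, read 8.01, 11.1, 10.4 and 12.8 CPM in the PBS mice and 7.66, 9.31 and 6.97 CPM in the YMP mice (log2 change -0.38, 95% interval -0.82 to 0.05). The groups of Gpr34 overlapped through PBS 84. The 12 tested genes of activated microglia had a median of -0.04, 4 of them higher and 8 lower, and a median of 0.04 without PBS 72. Of 17 interferon-stimulated genes, 4 were higher and 13 lower, with a median of -0.09 that became 0.05 without PBS 72. The 16 genes of homeostatic astrocytes had a median of -0.05, and of 0.01 without PBS 72. Of 11 tested genes of reactive astrocytes, 4 were higher and 7 lower, with a median of -0.11 that was -0.01 without PBS 72. Tm4sf1, a membrane protein of that list, read 13.5, 11.5, 11.5 and 11.7 CPM in the PBS mice and 10.1, 9.31 and 9.37 CPM in the YMP mice (log2 change -0.35, 95% interval -0.65 to -0.05), with every YMP mouse below every PBS mouse.

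All 18 genes of mature myelin were lower in YMP, with log2 changes from -0.31 to -0.06 and a median of -0.14. Of them 0 reached an unadjusted p under 0.05 (2.62% of all genes). Their sum read 4810, 5500, 7210 and 7120 CPM in the PBS mice and 4520, 7590 and 4560 CPM in the YMP mice. YMP 73 and YMP 81 were the lowest of the 7 libraries and YMP 77 the highest, so the groups overlapped. Mbp, the myelin basic protein gene, read 1842, 2207, 2802 and 2838 CPM in the PBS mice and 1768, 3149.7 and 1761 CPM in the YMP mice (log2 change -0.12, 95% interval -0.61 to 0.37). Opalin, a membrane protein of oligodendrocytes, read 20.3, 20.2, 26.99 and 26.4 CPM in the PBS mice and 21.4, 22.8 and 14.3 CPM in the YMP mice (log2 change -0.31, 95% interval -0.73 to 0.11). Myelin genes vary together from mouse to mouse, so 18 members of the same sign are not 18 independent observations. Without YMP 81, 5 members were higher and 13 lower, with a median of -0.04, and without YMP 77 all 18 were lower, with a median of -0.43. Of 14 genes of oligodendrocyte precursors, 4 were higher and 10 lower (median -0.10, and -0.06 without PBS 72). Lhfpl3, a marker of these cells, read 18.6, 17.2, 16.3 and 13.95 CPM in the PBS mice and 11.3, 12.4 and 13.9 CPM in the YMP mice (log2 change -0.37, 95% interval -0.68 to -0.06), with the groups just apart between PBS 84 and YMP 81.

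**Figure D4:**
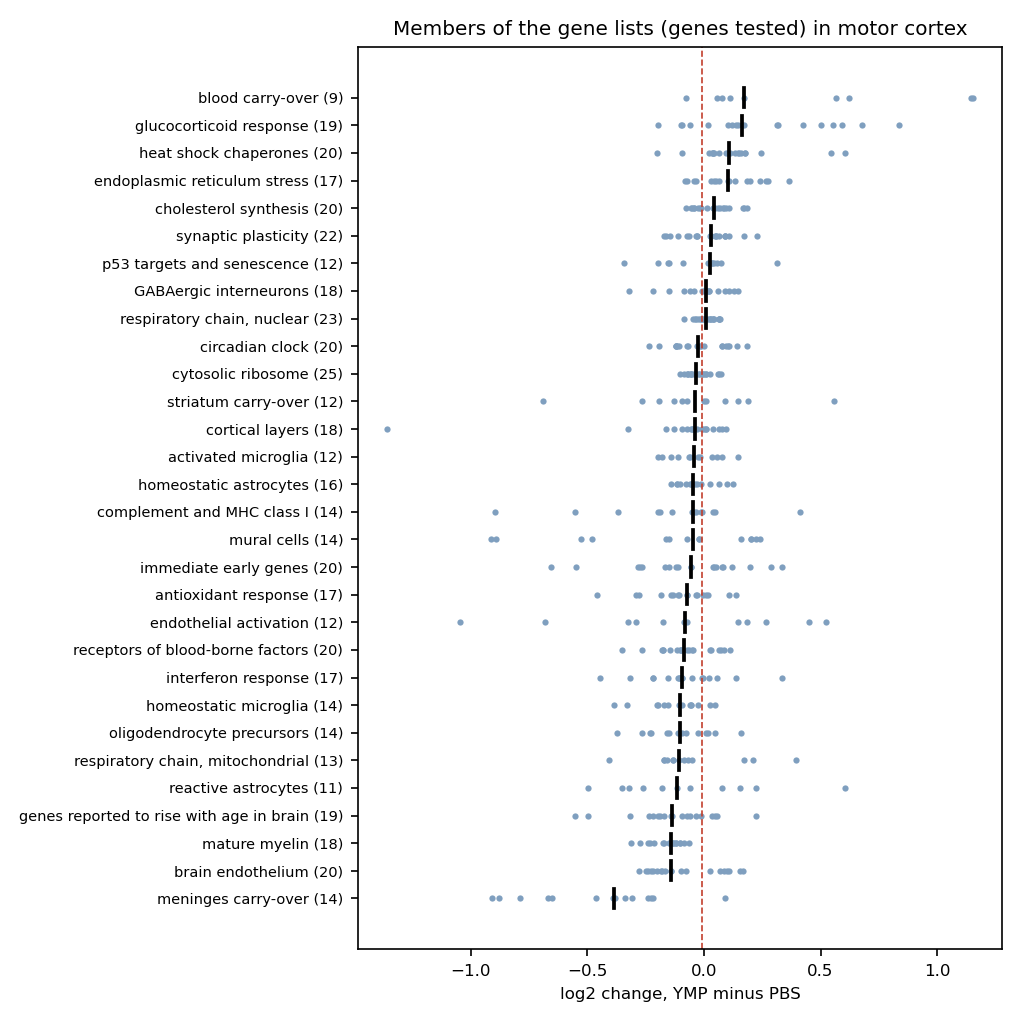
Each row is 1 of 30 gene lists with at least 5 tested members, each point a member's log2 change (YMP minus PBS), the black bar the list's median and the dashed line the median of all 13246 genes, -0.01. The medians run from -0.38 for meningeal genes to 0.17 for blood cell genes.

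The next 4 lists cover the vessel wall, where plasma meets the brain, and receptors of blood-borne factors. The receptor list was not restricted to genes of vessel cells. Of 20 endothelial genes, 7 were higher and 13 lower, with a median log2 change of -0.14. In this list 0 members reached an unadjusted p under 0.05 (2.62% of all genes). Slc2a1, the glucose transporter of the barrier, read 98.3, 94.96, 105 and 106 CPM in the PBS mice and 88.7, 126 and 121 CPM in the YMP mice (log2 change 0.17, 95% interval -0.08 to 0.41). Tfrc, the transferrin receptor, read 48.4, 62.1, 64.6 and 93.6 CPM in the PBS mice and 59.6, 58.3 and 48.6 CPM in the YMP mice (log2 change -0.28, 95% interval -0.71 to 0.15). The endothelial median became 0.04 without PBS 72, with 11 members higher and 9 lower. Of 12 genes of endothelial activation, 5 were higher and 7 lower, and 1 in each direction reached an unadjusted p under 0.05. Angpt2, a vessel-destabilising ligand, read 5.37, 2.39, 2.19 and 2.02 CPM in the PBS mice and 1.61, 1.48 and 1.46 CPM in the YMP mice (log2 change -1.04, 95% interval -2.01 to -0.09), and Lrg1, a secreted glycoprotein, read 3.45, 2.39, 2.55 and 2.75 CPM in the PBS mice and 4.84, 3.40 and 4.27 CPM in the YMP mice (log2 change 0.52, 95% interval 0.01 to 1.04). The largest value of Angpt2 was that of PBS 72, without which its log2 change was -0.55. Over all genes, 1.42% reached that p and were higher and 1.2% lower. Without PBS 72 the list had 6 members higher and 6 lower. Of 14 genes of mural cells, 5 were higher and 9 lower (median -0.05), and the median was 0.13 without PBS 72. Acta2, the smooth muscle actin, read 29.5, 5.43, 5.47 and 6.06 CPM in the PBS mice and 3.63, 7.10 and 7.39 CPM in the YMP mice, and its log2 change of -0.89 became 0.23 without PBS 72. Of 20 tested receptors of blood-borne factors, 6 were higher and 14 lower (median -0.09), and without PBS 84 there were 9 higher and 11 lower (median -0.0041). Tgfbr2, a receptor of TGF-beta, read 27.1, 23.03, 24.1 and 21.3 CPM in the PBS mice and 20.96, 19.96 and 19.5 CPM in the YMP mice (log2 change -0.27, 95% interval -0.51 to -0.02), with all YMP mice below the PBS range.

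The sums of meningeal and of choroid plexus markers were highest in 1 PBS mouse, PBS 72. Single plexus genes differed, since Ttr had 3 counts in PBS 72 and 10 in PBS 80, and Folr1 had 0 in PBS 72. The sum of striatal markers was 285 CPM in PBS 72 and 286 CPM in YMP 77. Of 14 meningeal genes, 13 were lower in YMP, with a median log2 change of -0.38. Without PBS 72, 11 of 14 were higher, with a median of 0.16. Slc6a13, a transporter of meningeal cells, read 40.2, 10.2, 6.78 and 6.43 CPM in the PBS mice and 10.1, 9.02 and 11.7 CPM in the YMP mice. Col1a1, a fibrillar collagen, read 34.4, 17.6, 8.17 and 7.53 CPM in the PBS mice and 17.7, 5.32 and 8.12 CPM in the YMP mice. PBS 72 was highest in both. Kcnj13, the only one of 12 choroid plexus genes that passed the filter, read 11.4, 3.04, 2.26 and 1.84 CPM in the PBS mice and 5.24, 2.51 and 3.23 CPM in the YMP mice, and the plexus sum was 17.1 CPM in PBS 72 and 4.91 to 7.19 CPM in the other 6 libraries. Serping1, a complement inhibitor on the immune list, was also highest in PBS 72, with 29.001, 10.4, 6.05 and 6.06 CPM in the PBS mice and 10.9, 5.03 and 7.08 CPM in the YMP mice (log2 change -0.89, 95% interval -2.19 to 0.40). Without PBS 72 the log2 change of Serping1 was -0.03. The part of meningeal or plexus tissue in these values was not tested. Of 9 tested blood cell genes 8 were higher in YMP (median 0.17), and the median was -0.02 without YMP 81 and 0.84, with all 9 higher, without PBS 84. The neutrophil gene S100a8 read 0.71, 4.35, 4.38 and 0 CPM in the PBS mice and 8.06, 1.63 and 7.49 CPM in the YMP mice (log2 change 1.15, 95% interval -0.57 to 2.89). YMP 77 lay with the PBS mice there.

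Neuronal gene lists were centred close to 0. Of 22 genes of synaptic plasticity, 13 were higher and 9 lower, with a median log2 change of 0.03 and a range of -0.17 to 0.23. Of them 0 reached an unadjusted p under 0.05 in either direction (2.62% of all genes). Homer2, a postsynaptic scaffold, read 83.2, 67.1, 78.1 and 66.5 CPM in the PBS mice and 83.03, 77.5 and 89.3 CPM in the YMP mice (log2 change 0.17, 95% interval -0.05 to 0.39). Gria3, an AMPA receptor subunit, read 213, 256, 241 and 250.4 CPM in the PBS mice and 263, 261 and 254 CPM in the YMP mice (log2 change 0.11, 95% interval -0.05 to 0.27). Of 18 interneuron genes, 11 were higher and 7 lower (median 0.01, and -0.04 without YMP 81). Of 18 layer markers 7 were higher and 11 lower (median -0.04), and the median lay between -0.09 without PBS 72 and 0.02 without PBS 84. Immediate early genes, which neurons switch on after activity, had 9 of 20 higher and 11 lower (median -0.06), and the median lay between -0.18 without PBS 80 and 0.03 without YMP 77. Npas4, an activity-dependent transcription factor, read 19.2, 30.2, 31.6 and 35.4 CPM in the PBS mice and 18.5, 16.3 and 19.98 CPM in the YMP mice (log2 change -0.66, 95% interval -1.10 to -0.21). PBS 72 alone among the PBS mice lay in the YMP range for Npas4. Nr4a2 read 33.9, 25.9, 26.3 and 25.7 CPM in the PBS mice and 22.2, 23.4 and 23.3 CPM in the YMP mice (log2 change -0.28, 95% interval -0.56 to -0.01), below the PBS range in all YMP mice. Arc, a regulator of synaptic strength, read 762, 970.4, 334 and 596 CPM in the PBS mice and 833, 861 and 815 CPM in the YMP mice (log2 change 0.33, 95% interval -0.27 to 0.94), and PBS 80 was lowest. Both signs were thus present among the activity genes, and Arc had the highest log2 change of the list. The 2 members with an unadjusted p under 0.05 in edgeR, Npas4 and Nr4a2, were both lower (1.2% of all genes).

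Nuclear genes of energy and protein synthesis showed narrow ranges. The 23 nuclear genes of the respiratory chain had log2 changes between -0.08 and 0.07 with a median of 0.01, and the 25 ribosomal protein genes lay between -0.10 and 0.07 with a median of -0.03. In both lists 0 members reached an unadjusted p under 0.05 (2.62% of all genes). The median of the first list was -0.02 without PBS 84 and that of the second 0.02 without YMP 77. The 13 mitochondrial genes ran from -0.41 to 0.39 with a median of -0.11, which lay between -0.17 without PBS 72 and -0.04 without YMP 77. The 20 genes of cholesterol synthesis, much of which takes place in glia, had a median of 0.04, with 12 higher and 8 lower, and of -0.02 without PBS 72, with 8 higher and 12 lower. The 20 clock genes had a median of -0.02, the 17 antioxidant genes -0.07 and the 12 genes of p53 and senescence 0.03. With 1 mouse left out these medians lay between -0.07 and -0.01, between -0.11 and -0.02, and between -0.01 and 0.03. None of the members of these lists had an adjusted p under 0.05.

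Some genes varied widely between mice of the same group. Tshz2, a zinc finger transcription factor of cortical neurons, read 124, 30.9, 45.002 and 16.3 CPM in the PBS mice and 16.1, 18.04 and 18.9 CPM in the YMP mice (log2 change -1.63, 95% interval -2.94 to -0.32). PBS 72 was far above the other libraries, PBS 84 lay next to the YMP mice and the YMP values were nearly equal. Tshz2 was the only gene called, lower in YMP, when PBS 72 and 84 were both left out, with an edgeR log2 change of -1.13 and an adjusted p of 0.0419. That choice of mice was made after the data had been seen, and 2 PBS mice remained in it. Ybx3, an RNA-binding protein, had the largest within-group SD of log2 CPM among genes of at least 10 CPM, 1.24. It read 36.1, 5.87, 13.5 and 4.22 CPM in the PBS mice and 23.4, 26.6 and 6.76 CPM in the YMP mice (log2 change 0.17, 95% interval -1.33 to 1.67). Diras2, a small GTPase of neurons, ran the other way, with 18.96, 58.7, 60.2 and 141 CPM in the PBS mice and 51.99, 46.3 and 64.01 CPM in the YMP mice, highest in PBS 84. Ccn2, a marker of the deepest cortical cells, read 0.913, 6.08, 8.61 and 11.7 CPM in the PBS mice and 1.21, 4.14 and 1.87 CPM in the YMP mice (log2 change -1.36, 95% interval -2.94 to 0.22), and PBS 72 lay below every YMP mouse. The other 7 of the 10 most variable genes were Pcsk6, Col1a1, Slc6a13, Fmod, Mbd2, Smad4 and Slc13a4, and PBS 72 was the highest library in each.

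Whether the response differed between cortical areas was tested with the same mice in visual cortex (3 YMP, 3 PBS) and entorhinal cortex (3 YMP, 4 PBS). The difference of the YMP effect between motor and visual cortex passed in 0 of 13708 genes with edgeR (0%) and in 0 with DESeq2, and 167 (1.22%) had an unadjusted p under 0.05. Between motor and entorhinal cortex 0 of 13858 genes passed with either tool (0%), and 408 (2.94%) had an unadjusted p under 0.05. Within visual cortex alone 0 genes were called and 377 had an unadjusted p under 0.05, and within entorhinal cortex the counts were 0 and 642. The mouse numbers mark the same animals in all areas. With the mouse as a block, 2 genes differed between motor and visual cortex, Lmo3 and Lrp3, and 0 between motor and entorhinal cortex. Lmo3, a transcriptional cofactor of neurons, had a blocked difference of -0.93 (edgeR, adjusted p 0.0287), and Lrp3, a receptor of the LDL family, one of 0.88 (adjusted p 0.0287). Without the block the differences of Lmo3 and Lrp3 were -0.58 and 0.26 in edgeR, with p-values of 0.299 and 0.636. In motor cortex Lmo3 varied widely between the PBS mice. It read 20.1, 59.5, 65.6 and 103.9 CPM in the PBS mice and 51.99, 60.8 and 72.9 CPM in the YMP mice. The part of this spread in the blocked difference was not tested. No visual cortex library of PBS 72 was analysed here, so the blocked difference rests on the other 6 mice. The 167 genes became 998 with the block and 410 without PBS 72, and the 408 ranged from 247 without YMP 81 and 254 without PBS 76 to 712 without PBS 72 and 802 without YMP 77.

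The leading motor cortex genes are best read beside the other areas. Camk1g had a log2 change of 0.38 in motor, 0.04 in visual and 0.15 in entorhinal cortex. Fxyd6 had -0.34, -0.14 and 0.44 in the same order, Satb1 -0.43, -0.03 and -0.08, and Pdia4 0.37, 0.05 and 0.17. Igfbp5 had -0.44, -0.29 and -0.22. The areas come from the same mice, so these values are set side by side without a count of matching signs. The smallest p among the differences from visual cortex belonged to Tacr3, a neurokinin receptor, at 0.00223. In motor cortex Tacr3 had 0, 0 and 2 counts in the YMP mice and 13, 7, 12 and 4 in the PBS mice, so no fold is given. Meis2, a transcription factor of striatal and cortical neurons, read 78.3, 86.1, 91.5 and 69.4 CPM in PBS and 105, 94.7 and 99.5 CPM in YMP motor cortex. In visual cortex it read 86.95, 84.2 and 89.03 CPM in PBS and 81.5, 74.8 and 80.04 CPM in YMP. The difference was 0.42 (SE 0.12, adjusted p 0.9999 in edgeR). Hhip, an inhibitor of hedgehog signalling, differed by -0.74 and the long non-coding RNA Rian by -0.42, at the same adjusted p. Fgf10, a growth factor, had a difference of -0.78 from entorhinal cortex and the zinc finger gene Zfp850 one of -0.89, among the 5 smallest p there. Fgf10 read 10.6, 10.3, 12.5 and 13.1 CPM in PBS and 9.75, 9.52 and 9.58 CPM in YMP motor cortex. In entorhinal cortex Fgf10 read 8.33, 8.53, 8.53 and 8.97 CPM in PBS and 10.2, 11.1 and 14.8 CPM in YMP, with every YMP mouse above every PBS mouse.

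**Figure D5:**
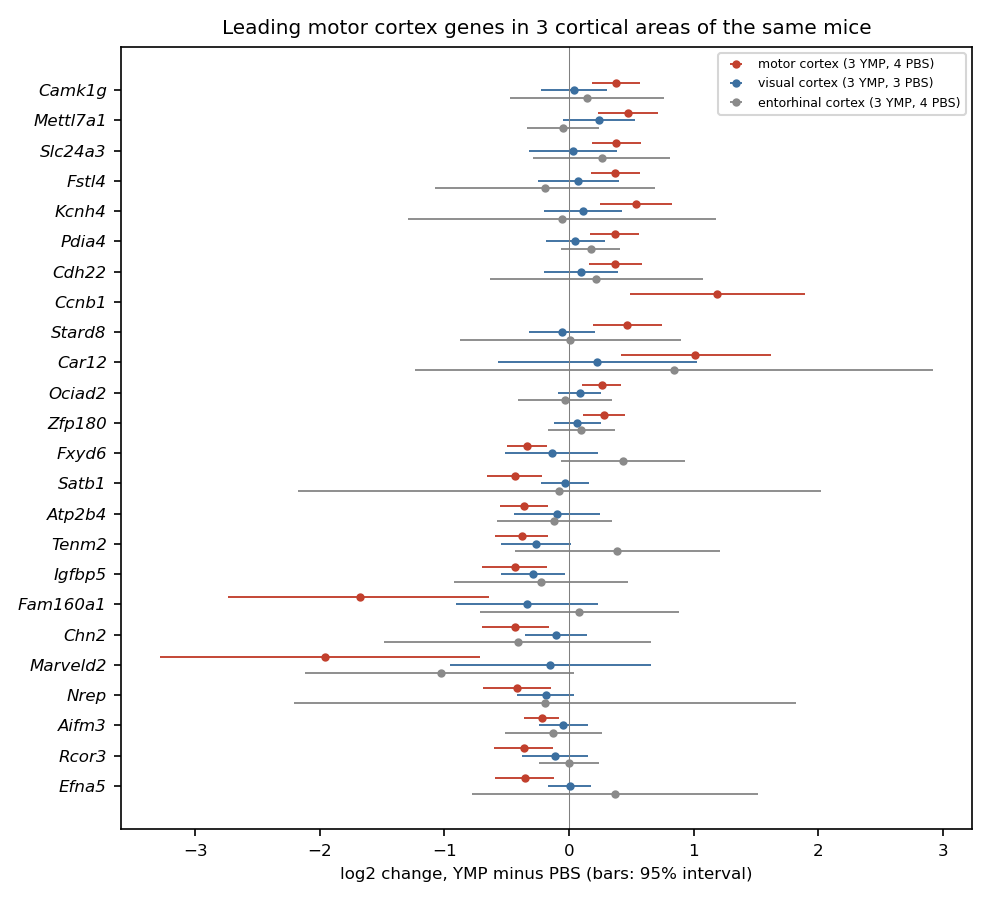
Points are the log2 changes (YMP minus PBS) of the 24 leading motor cortex genes in motor, visual and entorhinal cortex of the same mice, and bars are 95% intervals. Ccnb1 was not tested in visual or entorhinal cortex alone and has no point there. The intervals of entorhinal cortex are the widest for most genes, and those of motor cortex exclude 0 because the genes were chosen there by p.

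The response to young plasma was also set against that to dietary restriction in motor cortex, measured in other mice (5 aDR, 4 AL). The difference between the YMP effect and the aDR effect passed in 2 of 13457 genes (0.0149%), and 924 (6.87%) had an unadjusted p under 0.05. Zfp180, a zinc finger gene among the 12 higher genes above, read 86.2, 91.1, 84.98 and 76.8 CPM in PBS and 99.1, 102 and 107 CPM in YMP. In the diet experiment Zfp180 read 85.6, 88.5, 84.1 and 80.9 CPM in AL and 69.5, 67.1, 72.95, 66.1 and 69.7 CPM in aDR. The YMP mice lay above their controls and every aDR mouse below its own, a difference of 0.57 (SE 0.085, edgeR adjusted p 0.0158). Arntl, the clock activator BMAL1, read 56.5, 56.2, 58.1 and 51.7 CPM in PBS and 59.2, 57.5 and 62.98 CPM in YMP. It read 55.1, 55.5, 54.1 and 53.6 CPM in AL and 40.4, 39.8, 37.3, 39.4 and 33.96 CPM in aDR, a difference of 0.63 (SE 0.095, edgeR adjusted p 0.0158). The separation in Arntl came mostly from the diet mice, with log2 changes of 0.11 for YMP and -0.53 for aDR. Cirbp, a cold-inducible RNA-binding protein, Dbp, a clock output factor, and Car12 followed with differences of -0.80, -0.62 and 1.72 and adjusted p of 0.148 for Cirbp and 0.160 for the other pair. The 2 calls were lost without YMP 77 or without YMP 81 and with PBS 72 and 84 left out, and DESeq2 called 22 genes. Without PBS 72 the 924 genes became 1421 and the calls 4, and the calls were 7 without PBS 76 and 6 without PBS 80. Across the 13064 genes tested in both, the log2 changes of YMP and aDR had little relation (r -0.04 by Pearson, rho -0.09 by Spearman), given as a description over genes that are not independent. The experiments differ in sex, so sex and intervention cannot be told apart in this comparison.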

How the data were processed

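RNA of motor cortex from 3 YMP and 4 PBS mice was measured. The deposited values are whole-number read counts per gene in 1 table of the authors, with 21076 gene rows, 537 of them without a count in any library. The submitters' processing notes name Trim Galore 0.3.7, STAR 2.5.3a, DESeq2 and the build GRCm38, and the counting program and annotation were not given in the sources used here. Per the labels, libraries carry no strand, so genes that overlap another gene, have an antisense partner or a near-identical copy are uncertain. No molecular identifiers are mentioned, so reads are not independent molecules.

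Genes passed filterByExpr (minimum count 10, minimum total 15). TMM-normalised counts were tested in edgeR 4.0.16 under R 4.3.3 by quasi-likelihood, with p-values adjusted by Benjamini-Hochberg over all genes tested and genes called at 0.05. DESeq2 1.42.0 was an alternative, as were RLE scaling, no filter, a fit with all 16 motor cortex libraries and leaving out each mouse. Intervals are 95% intervals of the unshrunk log2 change, and CPM are TMM-scaled. The tissue marker levels and ranks and the list sums are the exception and use plain library totals. Difference tests used the region or experiment by treatment term. The scripts were tested on simulated data. Positions and promoters are from RefSeq GRCm38.p6, and 13031 of the tested symbols had a position.

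Same-numbered libraries come from the same animal per the labels. Deviations from the group mean correlated at 0.19 on average between motor and visual cortex of a mouse (0.082 to 0.41) and at 0.056 with entorhinal cortex (-0.071 to 0.25). YMP and PBS mice share no number. Replicate libraries differed beyond sampling noise (chi-square per degree of freedom 1.96 to 19.4), so each counted once, and whether the mice shared cages or preparation days is not in the labels.

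Genes named with values were drawn mainly from set choices. These were the 12 higher and 12 lower genes with the smallest p and the 3 smallest p of each of 31 lists. They also held the 5 smallest p of each difference test and cell type markers. The 10 genes of at least 10 CPM with the largest within-group SD were included too. Not every gene of these choices is given in the text, and Npy, Calb2 and Adgrg2 are examples left out. Others named in the text were picked after their values were seen. The members and lists were chosen with earlier results of these data known. Ctgf was matched to Ccn2, and Clec7a, Mx1, Ddit3 and Atp5o had no row.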

Additional observations from a re-analysis of the deposited data

Results flagged for a closer look

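In 128 groups of 4 PBS values, 15 held 1 value farther from the rest than Dixon's 95% limit for 4 values allows. Chance flags about 1 in 20 groups, 6.4 here, and genes of 1 mouse are not independent. The groups include genes chosen for a large within-group SD, such as Slc6a13, Fmod and Mbd2, and that rate does not hold for them. PBS 72 was the value apart in 14. For the flagged genes of vessels and meninges it was high. Acta2 read 29.51 CPM against 5.432 to 6.058 in the other PBS mice, Slc6a13 40.16 against 6.425 to 10.21, Fmod 72.70 against 14.50 to 19.12, Ogn 26.87 against 5.324 to 6.736 and Angpt2 5.374 against 2.019 to 2.390. Slco1a4, an endothelial transporter, read 44.31 CPM against 34.72 to 36.29. Not all vessel genes were high in PBS 72. It was the lowest PBS mouse for the mural cell gene Rgs5 (25.5 CPM) and for Tfrc (48.4 CPM), neither of which was flagged. Of plexus markers, Kcnj13 read 11.36 CPM against 1.836 to 3.042, and the summed plexus list 17.10 against 4.910 to 6.320. Mbd2 read 32.04 CPM against 5.874 to 7.148, Nrep 85.48 against 62.05 to 64.99, Nr4a2 33.87 against 25.70 to 26.26 and Tm4sf1 13.49 against 11.52 to 11.75. PBS 72 was low for Atp2b4, at 34.17 CPM against 36.83 to 36.94, and for Hsd17b7, a gene of cholesterol synthesis, at 31.94 against 39.10 to 39.68. PBS 80 was low for Dbp, at 63.97 CPM against 76.18 to 78.69.

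In 2 genes the effect of YMP differed from that of aDR by a test of the difference itself, by 0.572 on the log2 scale for Zfp180 and by 0.631 for Arntl.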

How the results depend on the processing

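The count of 0 genes called in motor cortex was unchanged by RLE scaling, DESeq2, no low-count filter, the fit of 16 libraries and leaving out each mouse, and was 1 (Tshz2) with PBS 72 and 84 both left out. The count at an unadjusted p under 0.05, 347, was 154 with DESeq2, 586 in the fit of 16 libraries and 244 (without YMP 81) to 656 (without PBS 72) with 1 mouse left out. The 664 genes whose groups did not overlap became 997 to 1607 with 1 mouse left out and 2375 without PBS 72 and 84, since fewer libraries have to be separated. The share of intervals within 2-fold, 93%, was 72.4% without the filter, 93.5% with 16 libraries and 86.8 to 94.8% with 1 mouse left out. Of 110 named genes, 105 kept their sign in each setting. The leading genes are among the 105, and their groups do not overlap, which largely fixes the sign in advance. The sign turned in 5 genes, and the cause was not tested. With 1 mouse left out, the log2 change ran from -1.17 to 0.23 in Acta2, from -0.83 to 0.50 in Kcnj13 and from -1.11 to 0.036 in Ogn, each highest without PBS 72, and from -0.016 (without YMP 81) to 1.21 in Hbb-bt. Without PBS 72 and 84 it was 0.29 in Acta2, 0.39 in Kcnj13 and -0.016 in Ndufs4. Leaving out PBS 72 and 84 together was chosen after seeing the data.

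With the mouse as replicate block, the pairing moved the calls of the difference from visual cortex from 0 to 2 and left those from entorhinal cortex at 0. The 2 calls of the difference between YMP and aDR were 22 with DESeq2, 0 (without YMP 77 or 81) to 7 (without PBS 76) with 1 mouse left out, 4 without PBS 72, 6 without PBS 80 and 0 without PBS 72 and 84. In those settings at 0, the adjusted p of Zfp180 and Arntl lay between 0.061 and 0.175. Depth was lowest in YMP 73, and genes under 10 CPM had the widest intervals.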
